A study of Mus musculus with 8 samples.

Results

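Metabotropic glutamate receptors are the G-protein-coupled receptors for glutamate, and 6 of their genes, Grm2, Grm3, Grm4, Grm5, Grm7 and Grm8, were followed here in the striatum of Dclk3 knockout mice. The 6 genes were taken by name from a table of 31417 genes, all 6 passed the filter on low counts, and other genes of the family were not analysed here. RNA from 1 striatum per library was sequenced after poly(A) selection in 12-month-old mice, with 4 wild-type libraries, labelled as controls of the knockout, and 4 Dclk3 knockout libraries. Which part of Dclk3 was deleted, the strain and how the allele was made are not stated in these sources. No source says that each library came from a different mouse, so p-values measure the spread between these striata.

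These receptors fall into 3 groups by sequence and signalling. Group I, to which Grm5 belongs, couples to Gq proteins and phospholipase C, is held at the edge of the postsynaptic density by Homer scaffolds, and drives calcium release and endocannabinoid synthesis in spiny neurons. Group II (Grm2 and Grm3) and group III (Grm4, Grm7 and Grm8) couple to Gi/o proteins, lower cyclic AMP, and act mostly on axon terminals, where they limit transmitter release; Grm3 is also expressed by astrocytes. A receptor that acts on a terminal in the striatum can have its transcript in a cell body elsewhere, for example in the cortex, so tissue RNA does not count the receptors on incoming axons.

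Total counts ran from 24441242 to 37145559 per library. The targeted gene differed as labelled: Dclk3 was at 80.9 to 117 CPM (the read count relative to the TMM-scaled library total) in wild-type libraries and at 19.6 to 27.7 CPM in knockout libraries. Markers of the labelled tissue were present in every library, with 10 of 10 spiny neuron markers measured and a summed level of 3739 to 4356 CPM in wild-type and 3648 to 4167 CPM in knockout libraries. Wild-type replicate 4 and knockout replicate 4 lay at opposite ends of the first principal component. Wild-type replicate 4 also held Ttr, the choroid plexus transcript for transthyretin, at 2717 CPM, against 23.7 to 208 CPM in the other 7 libraries. Knockout replicate 4 had the highest summed level of 10 thalamic and subcortical glutamatergic markers, 586 CPM against 205 to 373 CPM in the other libraries.

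None of the 6 receptor genes passed the test between the genotypes, and in each of them the 2 groups of libraries overlapped. With p adjusted over 16511 genes (edgeR quasi-likelihood, Benjamini-Hochberg), 0 of 6 had an adjusted p under 0.05, where 1 gene in all, Dclk3, was called (0.00606% of the genes tested). An unadjusted p under 0.05 was reached by 0 of the 6 and by 3.76% of all genes. The same 0 of 6 came from the DESeq2 Wald test and from limma-voom. The groups did not overlap for 0 of the 6 genes and for 1.93% of all genes. Log2 fold changes, knockout over wild type, were above 0 for 2 receptor genes and below 0 for 4, with a median of -0.035, beside a median of -0.00112 over all genes tested, of which 50.5% lay below 0.

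**Figure D1:**
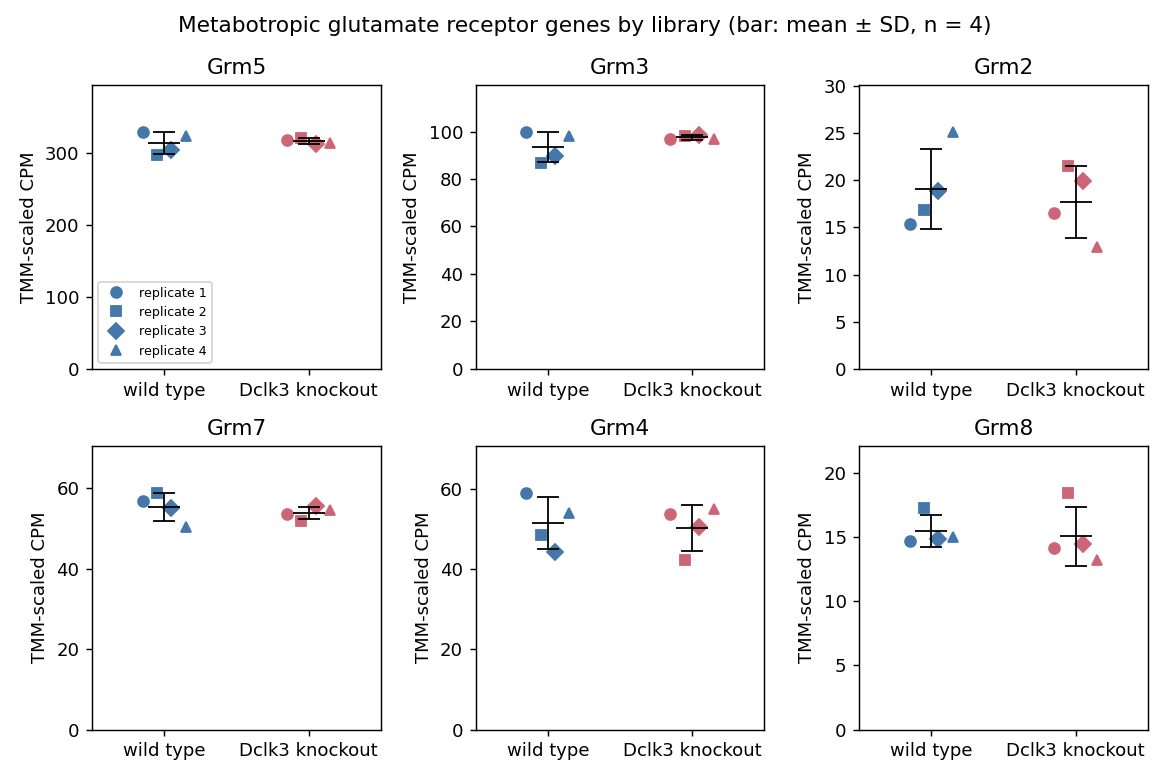
TMM-scaled CPM (vertical axes, each from 0) of the 6 receptor genes in 4 wild-type (blue) and 4 Dclk3 knockout (red) libraries, with the symbol giving the replicate number and the bar the mean ± SD. The genotypes overlap in every panel; Grm2 has the widest spread, from 12.9 to 25.1 CPM.

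The group I receptor gene Grm5 (ENSMUSG00000049583; plus strand of chromosome 7, 87584168 to 88134907 in GRCm38, the assembly mm10 names) encodes mGluR5. It was at 329, 297, 305 and 323 CPM in replicates 1 to 4 of wild type and at 318, 321, 312 and 314 CPM in those of the knockout. All 4 knockout libraries lay inside the wild-type range. Wild type averaged 313 CPM ± 15.1 and the knockout 316 CPM ± 4.01 (SD, n = 4 each). The log2 fold change was 0.013 (SE 0.055; adjusted p = 0.999, edgeR), and its 95% interval allowed a knockout level of 0.928 to 1.10 times that of wild type. With 7756 to 11796 counts per library it was the most deeply counted of the 6 genes, and its spread between libraries of a genotype (0.051 on the log2 scale) was as low as that of the lowest 4.1% of all genes tested.

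Of the group II genes, Grm3 (ENSMUSG00000003974; minus strand of chromosome 5, 9485541 to 9725170) encodes mGluR3. It was at 99.7, 86.8, 89.6 and 98.2 CPM in wild-type and at 96.6, 98.1, 98.7 and 96.9 CPM in knockout libraries. Wild-type replicates 2 and 3 were the 2 lowest libraries, and the knockout libraries again lay inside the wild-type range. The log2 fold change was 0.061 (SE 0.057), between means of 93.5 ± 6.36 and 97.6 ± 0.942 CPM (SD, n = 4 each), with a 95% interval from 0.957 to 1.14 times the wild-type level and an adjusted p of 0.999 (edgeR).

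The spread of Grm3 between the knockout libraries, a coefficient of variation of 0.966%, was below the 1.91% that counting error alone gives at this depth, while in wild type it was 6.80% against 1.82%. Grm5 had 1.27% against 1.06% in the knockout and 4.83% against 0.993% in wild type. Whether the spread differs between the genotypes was not tested, and the counting error treats reads as independent molecules, which PCR copies are not.

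Grm2 (ENSMUSG00000023192; minus strand of chromosome 9, 106643095 to 106656082), the gene for the presynaptic autoreceptor mGluR2, lies 4.78 Mb from Dclk3 on the same chromosome. Its levels were 15.4, 16.8, 18.9 and 25.1 CPM in wild-type and 16.5, 21.5, 19.9 and 12.9 CPM in knockout libraries. Replicate 4 gave the highest library in wild type and the lowest in the knockout. The means of 19.0 ± 4.27 and 17.7 ± 3.82 CPM (SD, n = 4 each) gave a log2 fold change of -0.105 (SE 0.188; adjusted p = 0.999, edgeR). The 95% interval, from 0.692 to 1.25 times the wild-type level, was the widest of the 6. The direction of the difference turned when replicate 4 of either genotype was left out, to 0.058 without that of wild type and 0.019 without that of the knockout, and was 0.183 without both. With sample quality weights in limma-voom it was 0.026.

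Grm7 (ENSMUSG00000056755; plus strand of chromosome 6, 110645581 to 111567230), a group III gene, encodes mGluR7, which sits in the presynaptic active zone and has a low affinity for glutamate. It was at 56.8, 58.8, 55.1 and 50.4 CPM in wild-type and at 53.5, 51.8, 55.4 and 54.5 CPM in knockout libraries. Wild-type replicate 4 was the lowest library and wild-type replicate 2 the highest, so the knockout libraries fell between them. Its log2 fold change was -0.038 (SE 0.060, interval 0.890 to 1.07 times wild type; adjusted p = 0.999, edgeR), and it lay below 0 in all 16 alternative settings, between -0.086 and -0.007.

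Grm4 (ENSMUSG00000063239; minus strand of chromosome 17, 27422387 to 27521403) encodes mGluR4, found on the terminals of spiny neurons of the indirect pathway and of cortical neurons. It was at 58.9, 48.4, 44.2 and 53.9 CPM in wild-type and at 53.6, 42.1, 50.4 and 54.9 CPM in knockout libraries. High and low libraries occurred in both genotypes, wild-type replicate 1 being the highest and knockout replicate 2 the lowest. Its log2 fold change was -0.031 (SE 0.101; adjusted p = 0.999, edgeR), and the interval ran from 0.839 to 1.14 times wild type. It turned to 0.040 without wild-type replicate 1 and to 0.044 without knockout replicate 2.

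Grm8 (ENSMUSG00000024211; minus strand of chromosome 6, 27275119 to 28135178), which encodes the presynaptic receptor mGluR8, was the least counted, with 345 to 616 counts per library. It was at 14.7, 17.3, 14.9 and 14.99 CPM in wild-type and at 14.1, 18.4, 14.4 and 13.2 CPM in knockout libraries. Replicate 2 stood above the other 3 libraries in each genotype. The interval ran from 0.830 to 1.14 times wild type around a log2 fold change of -0.040 (SE 0.105; adjusted p = 0.999, edgeR). The fold change was 0.018 without wild-type replicate 2, 0.017 without knockout replicate 4 and -0.151 without knockout replicate 2.

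**Figure D2:**
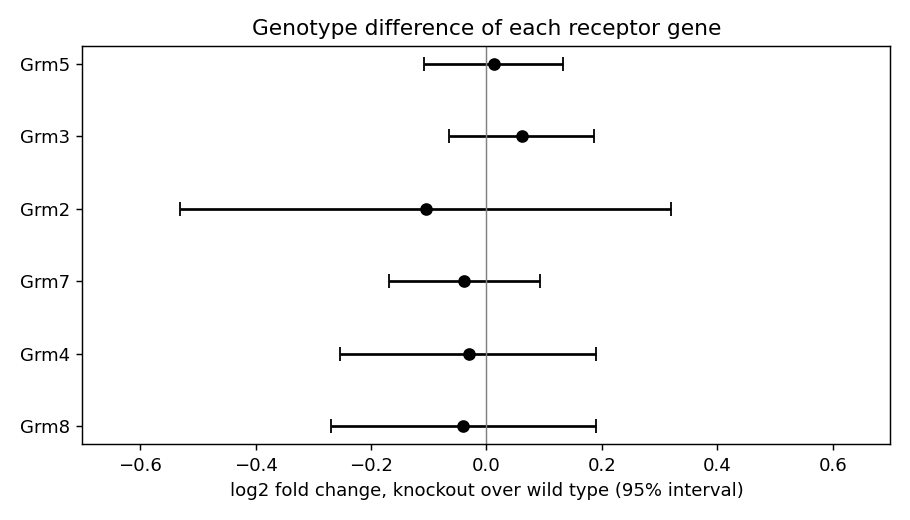
Log2 fold change of each receptor gene, knockout over wild type (horizontal axis), as a point with its 95% interval from the edgeR fit on 4 libraries per genotype. All 6 intervals include 0; that of Grm5 runs from -0.108 to 0.133 and that of Grm2 from -0.531 to 0.32.

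Grm2, Grm7 and Grm8 share exon bases with another annotated gene, so their counts can be affected by its reads. Grm2 shares 470 bases with the antisense gene Gm28111, and Grm7 shares 130 with the antisense gene Gm20387. For these it depends on whether counting used the strand, which no source states. Grm8 shares 96 with the microRNA gene Mir592 on its own strand, which counting by strand does not separate. Gm20387 was itself at 2.19 to 2.82 CPM in the 8 libraries.

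To compare levels between genes, CPM was divided by the length of the union of all annotated exons of the gene. Over the 8 libraries the order was Grm3 with 31.3 CPM per kb, Grm5 with 30.7, Grm7 with 9.27, Grm4 with 8.50, Grm2 with 3.75 and Grm8 with 1.54. The order was identical within wild type and within the knockout. Among the 16478 genes tested that have a length, Grm3 and Grm5 stood at percentiles 91.6 and 91.4 and Grm8 at percentile 30.2.

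Neighbours in this order were compared by their ratio within each library, with an exact two-sided sign-flip permutation test over 8 libraries and adjustment over the 5 neighbour pairs. The order was taken from the same 8 libraries, so the test is no independent check of it. Its p-values measure the spread between libraries and not the uncertainty of the gene length. Grm5 exceeded Grm7 3.32-fold, Grm4 exceeded Grm2 2.29-fold and Grm2 exceeded Grm8 2.40-fold, each in 8 of 8 libraries (adjusted p = 0.013, permutation test; the unadjusted 0.00781 is the smallest that 8 libraries allow). With the longest transcript in place of the exon union, Grm2 exceeded Grm8 only 1.21-fold, in 6 of 8 libraries, and with the coding length 1.24-fold, in 8 of 8. The levels of Grm3 and Grm5 (ratio 1.02, higher in 6 of 8 libraries, adjusted p = 0.0781, exact permutation test) and of Grm7 and Grm4 (ratio 1.10, 6 of 8, adjusted p = 0.0938) did not differ beyond their spread. Without wild-type replicate 2 or 3 the ratio of Grm3 over Grm5 passed (adjusted p = 0.0391 each, exact permutation test), at a log2 ratio of 0.036 and 0.034.

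The place of Grm5 and the distance between Grm2 and Grm8 depend on the length used. Its annotated exons span 10247 bases, its longest transcript 8047 and its coding sequence 3609, against 3049, 3049 and 2637 for Grm3, which has 1 annotated transcript. Per kb of the longest transcript, Grm5 was at 39.1 CPM and Grm3 at 31.3, and per kb of coding sequence Grm5 was at 87.2 and Grm3 at 36.2, so Grm5 was then first in 8 of 8 libraries. The other 4 genes kept the ranks of their means with all 3 lengths, though not in every library. The exon union of Grm8 is 9898 bases and its longest transcript 4799, against 4894 and 4711 for Grm2, and per kb of the longest transcript Grm8 lay above Grm2 in wild-type replicate 2 (3.60 and 3.57 CPM per kb) and in knockout replicate 4 (2.75 and 2.73). Grm7 exceeded Grm4 past the threshold with the longest transcript (log2 ratio 0.239, adjusted p = 0.00977, exact permutation test over 8 libraries), but was higher in 4 of 8 libraries with the coding length.

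**Figure D3:**
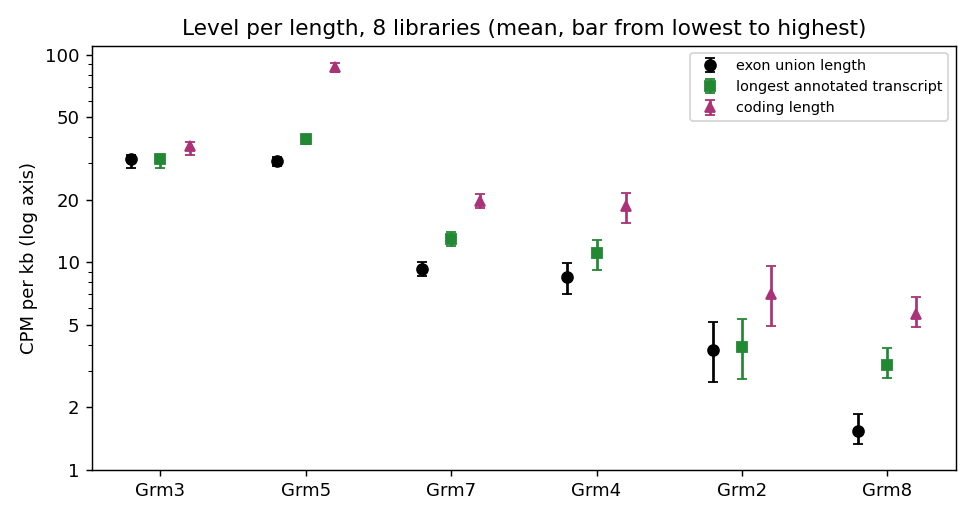
Level of each receptor gene in CPM per kb (vertical axis, log scale) with 3 definitions of gene length, as the mean of 8 libraries with a bar from the lowest to the highest library. Grm3 and Grm5 lie together with the exon union and apart with the coding length, at 36.2 and 87.2 CPM per kb.

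As shares of the summed CPM per kb of the 6 genes, group I made up 36.1% ± 0.348 in wild type and 36.1% ± 0.539 in the knockout, group II 40.8% ± 1.23 and 41.6% ± 1.02, and group III 23.1% ± 1.26 and 22.3% ± 1.12 (SD, n = 4 each). These shares rest on the exon union and were not tested, and the order of the groups changes with the length. With the coding length, group I made up 49.9% ± 0.507 in wild type and 50.1% ± 0.596 in the knockout, group II 24.6% ± 1.08 and 25.0% ± 0.902, and group III 25.5% ± 1.32 and 24.8% ± 1.03 (SD, n = 4 each). With the longest transcript the means over the 8 libraries were 38.5%, 34.7% and 26.8%. The shares describe 6 genes of the family and no protein.

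Across the 8 libraries, 1 of 15 pairs of receptor genes was correlated past the threshold. Log2 CPM of Grm3 and Grm5 gave Pearson's r = 0.902 (exact permutation p = 0.00241, adjusted over 15 pairs 0.0361) and Spearman's rho = 0.738 (exact permutation p = 0.0458, adjusted 0.456). Without the 2 libraries farthest from the median of Grm3, r was 0.545. The size of r thus depends on those libraries, whose removal also narrows the range of values. Within wild type r was 0.998 and within the knockout -0.254, over 4 libraries each. In the knockout the spread of Grm3, 0.966%, was below its counting error of 1.91%. That of Grm5, 1.27%, was near its 1.06%, so the knockout r rests on little variation beyond counting. With values centred within genotype, r was 0.947 over the 8 libraries. The adjusted p for r was above 0.05 in 6 of the 8 fits without 1 library, 0.0818, 0.336, 0.162 and 0.0714 without wild-type replicates 1 to 4 and 0.0655 and 0.0833 without knockout replicates 2 and 4, while r stayed between 0.791 and 0.971.

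Over the 8 libraries Grm2 had a ratio of 1.95 between the highest and the lowest, against 1.40 for Grm4, 1.39 for Grm8, 1.17 for Grm7, 1.15 for Grm3 and 1.11 for Grm5. Its highest and lowest libraries were the replicate 4 libraries of wild type and knockout, and without both the ratio was 1.40, the same as that of Grm4. Markers of cortical glutamatergic neurons moved with it. Tbr1, a transcription factor gene of deep-layer cortical neurons, was at 78.6, 79.1, 92.4 and 121 CPM in replicates 1 to 4 of wild type and at 84.4, 110, 106 and 56.6 CPM in the knockout. Ranked by level, 6 of the 8 libraries took the same place in Grm2 as in Tbr1, with wild-type replicate 4 first and knockout replicate 4 last in both genes. The vesicular glutamate transporter gene Slc17a7 followed less closely: its highest library was wild-type replicate 2, at 1159 CPM, and its lowest knockout replicate 4, at 545 CPM.

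All 10 listed cortical markers were measured and none was at 0, with summed levels of 1272 to 1907 CPM in wild-type and 947 to 1558 CPM in knockout libraries. The 10 thalamic and subcortical markers were also all measured, and summed to 209 to 341 CPM in wild-type and 205 to 586 CPM in knockout libraries. In a bulk sample, fewer cells of a type and less RNA per cell cannot be told apart. The part of these cell types in the Grm2 values was not tested.

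To put a value on this, each of the 6 genes was correlated with the score of each of 10 marker lists, 60 relations in all, a step chosen after the values were seen. A list's score is the mean over its genes of log2 CPM minus the gene's mean over the 8 libraries. After adjustment, 2 relations passed, both of Grm2. With the cortical score, r was 0.904 (exact permutation p = 0.00139, adjusted 0.0417) and rho 0.929 (exact permutation p = 0.00223, adjusted 0.0913), with r = 0.783 without the 2 libraries farthest from the median of Grm2. With the score of striatal interneuron markers, r was -0.946 (exact permutation p = 0.00117, adjusted 0.0417) and rho -0.905 (exact permutation p = 0.00456, adjusted 0.0913), with r = -0.819 without those libraries.

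The marker scores vary together between libraries, and Grm2 also had r = -0.883 with oligodendrocyte precursor markers (exact permutation adjusted p = 0.06) and r = -0.863 with thalamic markers (exact permutation adjusted p = 0.0807). Within the genotypes the cortical r was 0.837 in wild type and 0.998 in the knockout. In the 9 fits with 1 library or both replicate 4 libraries left out, it stayed between 0.783 and 0.971, and its adjusted p was under 0.05 in 1 of them, that without wild-type replicate 2. The interneuron r stayed between -0.975 and -0.819 and passed in 1 of 9, that without knockout replicate 2. For both relations the highest adjusted p, 0.625, came without both replicate 4 libraries.

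**Figure D4:**
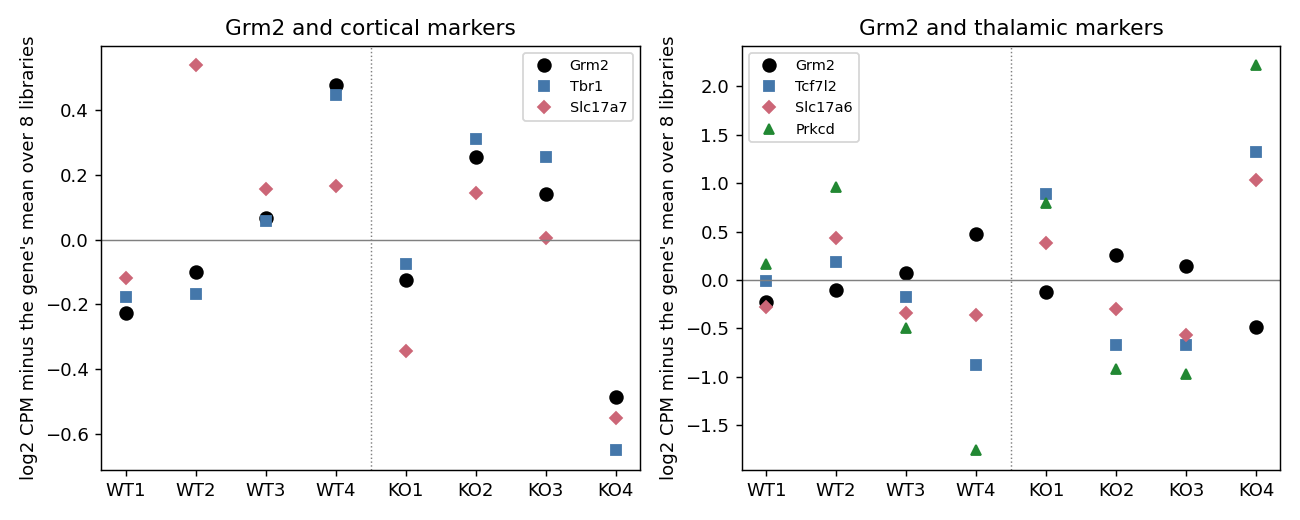
Log2 CPM minus the gene's mean over 8 libraries (vertical axes) for Grm2 and 2 cortical markers (left) and 3 thalamic markers (right), in wild-type (WT1 to WT4) and knockout (KO1 to KO4) libraries. Grm2 and Tbr1 are highest in WT4 and lowest in KO4, while Prkcd runs from 10.6 CPM in WT4 to 167 CPM in KO4.

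The genes whose pattern was most like that of each receptor gene were taken among 13450 other protein-coding genes with a mean of at least 1 CPM, by Pearson's r of log2 CPM centred within genotype over the 8 libraries. With so many genes and 8 libraries high values occur throughout, and the 99th percentile of r lay between 0.809 and 0.916 for the 6 genes. Closest to Grm2 were Etl4 (r = 0.990), the adenylyl cyclase gene Adcy2 (0.988) and the transcription factor gene Tshz3 (0.987). Closest to Grm3 were Zscan12 (0.967), the guanylate-binding protein gene Gbp5 (0.961) and the calcium channel subunit gene Cacna2d3 (0.956). Closest to Grm5 were the scramblase gene Plscr4 (0.962), the butyrylcholinesterase gene Bche (0.954) and the protocadherin gene Pcdhgb7 (0.948).

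In group III, Grm4 was most like the replication helicase gene Mcm4 (0.973), the nuclear receptor gene Ppard (0.951) and Mpp7 (0.949). Grm7 was most like the mitochondrial ribosomal protein gene Mrpl37 (0.955), Gadd45gip1 (0.946) and the proton pump subunit gene Tcirg1 (0.945). For Grm8, the transcription factor gene Nr2f1 (0.972) and Ltbp4 (0.965) were among the closest. Nr2f1 had replicate 2 as the highest library of each genotype, as Grm8 did, at 46.3 CPM in wild-type and at 51.4 CPM in knockout libraries, against 41.1 to 43.3 and 42.3 to 45.7 CPM in the others. The libraries share their RNA preparation and depth across genes, and these values are given as a description.

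Of 58 genes that act with these receptors, in 5 lists, 0 passed the threshold in either direction (edgeR, Benjamini-Hochberg over all genes). Their median log2 fold change was -0.004, and 29 lay below 0. An unadjusted p under 0.05 (edgeR) was reached by 3 of the 58 and by 3.76% of all genes. Without both replicate 4 libraries it was reached by 16 of the 58 and by 1364 of 16585 genes. After adjustment 0 of the 58 passed there as well. In the Gq and phospholipase C arm, downstream of Grm5, 6 of 10 genes lay above 0 with a median of 0.012. The smallest p belonged to Plcb4, a phospholipase C gene, with a log2 fold change of 0.305 (SE 0.144; unadjusted p = 0.0627, adjusted p = 0.999, edgeR). Plcb4 was at 86.1 CPM in knockout replicate 4, the library with the highest thalamic marker level, and at 48.4 to 68.9 CPM in the other 7. Knockout replicate 1, with a summed thalamic marker level of 373 CPM, had Plcb4 at 68.9 CPM. Wild-type replicate 4, with a sum of 223 CPM, had it at 68.2 CPM. The part of thalamic cells in the Plcb4 values was not tested. The log2 fold change of Plcb4 was 0.174 without knockout replicate 4, 0.422 without wild-type replicate 4 and 0.292 without both (adjusted p = 0.246, edgeR). Dagla, the diacylglycerol lipase that makes the endocannabinoid 2-arachidonoylglycerol, had -0.155, and Itpr1, the calcium store channel, 0.088. Without both replicate 4 libraries these were -0.055 and 0.201, and the median of the list was 0.086.

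In the Gi/o arm, which serves groups II and III, 5 of 11 genes lay above 0 with a median of -0.012. The G-protein subunit genes Gnaz and Gnai3 had -0.115 and -0.094, and Kcnj6, a G-protein-gated potassium channel subunit, had -0.223. Without both replicate 4 libraries the values were -0.081, -0.039 and -0.035, and the median of the list was 0.018. Kcnj9 and Kcnj3, also channel subunits of this list, had 0.056 and 0.006. In that setting they had 0.232 and 0.204 (adjusted p = 0.353 and 0.582, edgeR). Among the genes of desensitisation, 6 of 11 lay above 0 with a median of 0.001. Rgs2 and Rgs4, which shorten G-protein signals, had -0.142 and 0.12, and the arrestin gene Arrb2 had 0.114. Without both replicate 4 libraries Rgs2 had -0.207, Rgs4 0.227 and Arrb2 0.012, and the median of the list was 0.02.

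Of the scaffolds and binding partners, 11 of 14 lay below 0, with a median of -0.049. Elfn2, a transmembrane protein that binds group III receptors across the synapse, was at 101, 121, 89.1 and 88.4 CPM in wild-type and at 77.0, 88.5, 81.2 and 89.3 CPM in knockout libraries. The 2 lowest wild-type libraries overlapped the 2 highest knockout libraries. Its log2 fold change was -0.249 (SE 0.097), with an unadjusted p of 0.0261 and an adjusted p of 0.999 (edgeR). It was -0.142 without wild-type replicate 2, the highest library, and -0.334 without both replicate 4 libraries (adjusted p = 0.365, edgeR). Tamalin, a scaffold of group I receptors listed under its older symbol Grasp, had -0.221, and Ncdn (neurochondrin or norbin, which binds mGluR5) had -0.124. Without both replicate 4 libraries these were -0.311 and -0.221, and the median of the list was -0.089. Elfn1, also of this list, had -0.129, and -0.357 without both replicate 4 libraries (adjusted p = 0.269, edgeR). The Homer genes had -0.049 (Homer1), 0.015 (Homer2) and -0.136 (Homer3), and 0.129, -0.027 and -0.260 without both replicate 4 libraries.

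Of the genes that carry and convert glutamate, 9 of 12 lay above 0 with a median of 0.075. Glul, glutamine synthetase of astrocytes, was at 1779, 1436, 1671 and 1765 CPM in wild-type and at 2059, 1829, 1975 and 2124 CPM in knockout libraries. Every knockout library lay above every wild-type library, as for 1.93% of all genes in either direction. The log2 fold change of Glul was 0.264 (SE 0.078; unadjusted p = 0.00523, adjusted p = 0.999, edgeR), and Slc1a3, the astrocyte glutamate transporter, had 0.170 (unadjusted p = 0.023, adjusted p = 0.999, edgeR). Slc17a7, with the third smallest p of this list, had -0.364 (adjusted p = 0.999). Without both replicate 4 libraries Glul had 0.263, Slc1a3 0.117 and Slc17a7 -0.268, and the median of the list was 0.07. Beside Slc17a7, itself one of the listed cortical markers, 9 of 10 of those markers lay below 0 with a median of -0.203. Without both replicate 4 libraries 6 of 10 did, with a median of -0.038. Of the thalamic and subcortical glutamatergic markers, 10 of 10 lay above 0, with a median of 0.469. Without both replicate 4 libraries 7 of these 10 did, with a median of 0.027. Beside Glul and Slc1a3, 8 of 10 astrocyte markers lay above 0, Slc1a3 among them, with none at 0 and summed levels of 6509 to 7123 CPM in wild-type and 7258 to 7688 CPM in knockout libraries. Slc1a2 held the largest part of these sums, at 3782 to 4433 CPM in wild-type and 4054 to 4635 CPM in knockout libraries. The mean score of the list overlapped between the genotypes, at 0.022 in wild-type replicate 1 and -0.005 in knockout replicate 3. The median log2 fold change of the astrocyte markers was 0.153. Among other non-neuronal markers, 8 of 8 of oligodendrocytes (median 0.187) and 8 of 8 of microglia (median 0.101) lay above 0. So did 7 of 8 of endothelial cells (median 0.231). Oligodendrocyte precursor markers were mixed, with 5 of 8 above 0 (median 0.042). Those of choroid plexus and ependyma lay the other way, with 8 of 8 below 0 (median -0.501). Without both replicate 4 libraries the medians were 0.123 for astrocytes, 0.107 for oligodendrocytes, 0.014 for microglia and 0.238 for endothelial cells. In that setting they were -0.111 for oligodendrocyte precursors and -0.014 for choroid plexus and ependyma. The part of these cell types in the values of Glul, Slc1a3, Slc17a7 and Grm3 was not tested.

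**Figure D5:**
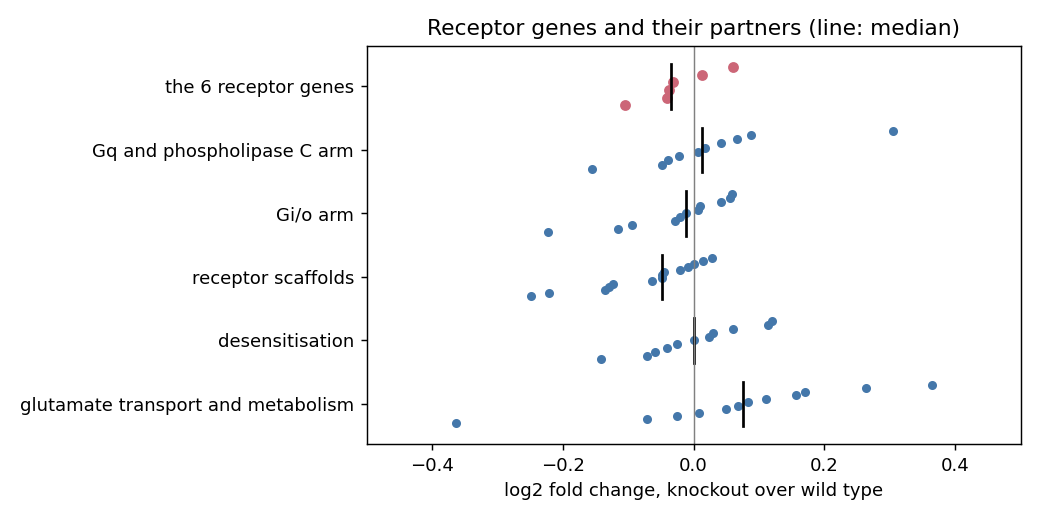
Log2 fold change, knockout over wild type (horizontal axis), of the 6 receptor genes (red) and of 58 partner genes in 5 lists (blue), 1 point per gene, with the median of each list as a line. The receptor genes lie between -0.105 and 0.061, and the list medians between -0.049 and 0.075.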

How the data were processed

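The authors deposited raw read counts per Ensembl gene, 1 column per library per the file headers. Per the labels' protocols, stranded poly(A) libraries used 1000 ng of RNA and 12 PCR cycles. Per the submitters' processing notes, bcl2fastq 2.17.1.14 and mm10 were used; the sources used here do not give the aligner, counter, annotation or strand setting. Symbols, positions and lengths came from GENCODE M21 on GRCm38, which matched 31292 of 31417 identifiers. In R 4.3.3, edgeR 4.0.16 kept 16511 genes (filterByExpr, minimum count 10), scaled by TMM and fitted a robust quasi-likelihood model with genotype alone, tested on simulated data first. The threshold was a Benjamini-Hochberg adjusted two-sided p of 0.05, and 95% intervals came from the quasi-likelihood statistic. Log2 CPM used a prior count of 2. DESeq2 1.42.0 and limma 3.58.1 (voom) were alternatives.

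The 6 genes, the partner and marker lists and the tests were chosen with earlier results of these data known. The text names all 6 genes, Dclk3, the 3 partner genes with the smallest p in each list, the 3 genes most like each receptor gene (1 of those of Grm8 is not reported here), and markers beside them; the Homer genes, Nr2f1's levels and the marker genes plotted beside Grm2 were chosen after their values were seen. Kcnj3, Kcnj9 and Elfn1 were also named after their values were seen. Within each genotype, chi-square per degree of freedom between libraries was at least 7.07, so none was a copy.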

Additional observations from a re-analysis of the deposited data

Results flagged for a closer look

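Grm8 in wild type had 1 library far from the others. Replicate 2, at 17.3 CPM, stood above the other 3 (14.7 to 14.99 CPM) by a gap that was 0.894 of the whole range, above the critical value of Dixon's test for 4 samples. Such a gap occurs by chance in about 1 group in 20, and 12 groups were checked. Knockout replicate 2 was the highest of its group in the same way, at 18.4 CPM, with a gap of 0.766 that stayed under the limit.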

How the results depend on the processing

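The 6 fold changes had no adjusted p under 0.05 in any of 16 alternative settings each (96 values, lowest adjusted p 0.739), of which leaving out replicate 4 of both genotypes was chosen after seeing the data; Grm3 stayed above 0 and Grm7 below 0 in all 16, while Grm2, Grm4, Grm5 and Grm8 changed sign in some. The count of receptor genes and of partner genes called was 0 in all of them. The count over all genes, 1 (Dclk3), was 3 in the DESeq2 Wald test (with Malat1 and 1520401A03Rik), 3 without replicate 4 of both genotypes (with Gpr101 and Gm26917), and between 1 and 2 when 1 library was left out; without the filter on low counts it was 1, Malat1 in place of Dclk3. These other genes were named after their values were seen. Scaling moved the median of all genes by under 0.01 (log2). With the replicate number as a block, 1 gene and 0 receptor genes were called. Same-numbered libraries had correlations of their deviations of 0.037, 0.021, 0.053 and -0.276, and 1 of 4 wild-type libraries correlated best with its own number. The labels give these libraries only a number in common, and 4 such values cannot show whether they share anything else. The log2 ratio of Grm3 over Grm5 reversed from 0.028 to -0.321 with the longest transcript and to -1.268 with the coding length, which are shorter for Grm5 by construction. That of Grm2 over Grm8 fell from 1.265 to 0.275 and 0.307. The group shares with these lengths, and the partner and marker values without both replicate 4 libraries, were added after seeing the data. The number of neighbour pairs in the order past the threshold, 3, was 0 without replicate 4 of both genotypes, where 6 libraries allow no unadjusted p below 0.0312, and between 3 and 4 when 1 library was left out. The number of correlated receptor pairs, 1, was 0 without replicate 4 of both genotypes and between 0 and 1 when 1 library was left out, where without wild-type replicate 1 the pair was Grm5 and Grm7 (r = -0.943, exact permutation adjusted p = 0.0149) in place of Grm3 and Grm5; the cause was not tested. Counting error was largest for Grm2 and Grm8, at 4.12% to 4.90% per library. It was below the coefficient of variation between libraries in both. That was 22.4% in wild type and 21.6% in the knockout for Grm2, and 7.88% and 15.3% for Grm8.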
